A study of Mus musculus with 5 samples.

Results

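Macrophage marker genes were followed on 5 Affymetrix mouse expression arrays of RNA labelled as lung. The marker genes are Mpeg1, Cd68, Lyz2, Marco, Mrc1, Clec10a, Csf1r, Msr1, Adgre1 and F13a1, 10 in all, and a probe set (the oligonucleotides that together measure 1 transcript) was taken for a marker when the platform annotation gave exactly 1 gene symbol, current or older, that was on this list. The rule found 14 probe sets of 8 genes among 12422 probe sets. The other 2 genes, Clec10a and F13a1, matched no probe set in the annotation used here and were not analysed. One further probe set is annotated to both Lyz1 and Lyz2 and was left out of the set. The animals were mice of strain A/J (written A-J by the submitters). In one group a saline solution had been put into the trachea (2 arrays), in the other IL-13, interleukin-13, by the same route (3 arrays). The array titles include a number without a unit (saline 6 and 48, then IL-13 6, 18 and 48), so an array is named here by its treatment and its number. Neither the age of the animals nor the number of animals behind an array is given in the sources used here, and a p-value here therefore reflects the spread among 5 arrays alone, which may be technical, and arrays of 1 treatment also differ in number.

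Macrophages are resident phagocytes. In mouse lung most of them sit in the alveoli, others lie in the interstitium, and blood monocytes add to both after injury. Many macrophages, though not all to the same degree, depend on the receptor for macrophage colony-stimulating factor. Macrophages take up particles and modified lipoproteins through scavenger receptors and lectins, and break them down in lysosomes. IL-13 acts on macrophages through a receptor chain shared with IL-4 and the transcription factor STAT6, a state called alternative activation, of which the mannose receptor and the galactose lectin gene Clec10a are textbook markers.

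All values are scaled intensities, which carry no detection calls here, and are listed within a treatment by rising array number. Values up to 55.3 (the pooled percentile 20) were treated as a floor at which values have no order, and a fold against an array below it is a lower bound. Probe sets above 210 (the pooled percentile 40) on at least 2 arrays were tested, 7811 in all. Between 59% and 61.1% of probe sets lay above 210 on each array. The label lung was checked against epithelial markers. The club cell secretoglobin Scgb1a1 read between 22024 and 31024 on the 5 arrays, whereas the alveolar surfactant gene Sftpc read 17179 on IL-13 18 and 2615 on saline 6, with 194.3, 257.2 and 300.5 for saline 48, IL-13 6 and IL-13 48. Sftpc thus varied widely between arrays, while Scgb1a1 was bright on every array. The surfactant gene Sftpb also varied widely, with 231.8 and 92.4 on the saline arrays against 86.3, 2114 and 67.6 on the IL-13 arrays. Sftpb exceeded 210 on saline 6 and IL-13 18 only. Sftpd, another surfactant gene, read 121 and 133 on the saline arrays against 217, 175 and 183 on the IL-13 arrays. It was too dim to be tested. The alveolar type I markers Ager and Hopx were above 210 throughout. Ager read 1872 and 2128 on the saline arrays against 2081, 4929 and 2019 on the IL-13 arrays. Hopx read 483.6 and 568.2 on the saline arrays against 1077, 1606 and 841.9 on the IL-13 arrays. It was thus higher on each IL-13 array than on either saline array. Salivary gland markers summed to 109537 on saline 6 and to between 765.3 and 907.2 on the other 4 arrays. In bulk RNA, fewer macrophages and less of a transcript per macrophage cannot be told apart.

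No macrophage marker passed the test of IL-13 against saline. The marker furthest from 0 was Mpeg1, which was lower on every IL-13 array than on either saline array. Of the 14 probe sets 6 were bright enough to be tested, from the 5 genes Mpeg1, Cd68, Lyz2, Mrc1 and Csf1r. In the limma fit with Benjamini-Hochberg adjustment over all tested probe sets, 0 of these 6 were called, and 1 of them (Mpeg1) had an unadjusted p under 0.05. Across all tested probe sets the same fit called 0.0128% as higher and 0.0384% as lower, and 9.26% had an unadjusted p under 0.05. With 1 probe set for a gene, 3 of the 5 genes had a lower and 2 a higher mean after IL-13, beside 45.7% of the 5983 tested genes with a lower mean. Their median log2 difference was -0.22, beside 0.03 over all tested genes. With the mean of both tested Csf1r probe sets in place of the brighter one, that median turned to 0.06, but the dimmer probe set passed the filter only through IL-13 arrays, on which it is high. The 3 genes Marco, Msr1 and Adgre1 did not pass the filter, and are described by their values.

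**Figure D1:**
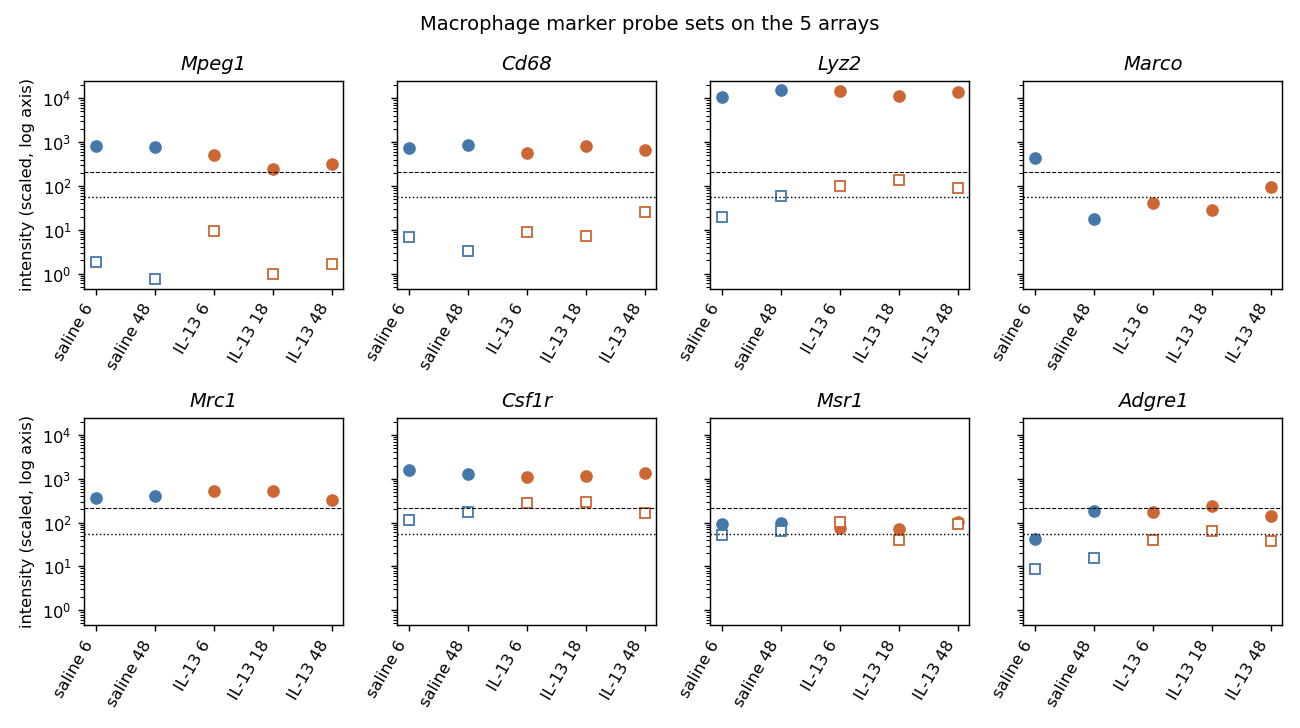
Scaled intensity (log axis) of the 14 macrophage marker probe sets on each of the 5 arrays, saline in blue and IL-13 in orange, with the second probe set of a gene as open squares, the floor of 55.3 as a dotted line and the filter value of 210 as a dashed line. Mpeg1 (99071_at) is lower on the 3 IL-13 arrays than on both saline arrays, Marco stands above the floor by a wide margin only on saline 6, and the open squares mostly lie near or below the floor.

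The first group of markers acts in the destruction of engulfed material. Mpeg1 encodes perforin-2, a pore-forming protein of phagocytes that attacks engulfed bacteria. Its probe set 99071_at read 812.1 on saline 6 and 752.9 on saline 48, and 519.8, 243.1 and 316 for IL-13 6, IL-13 18 and IL-13 48. The 2 saline arrays lay close together, the IL-13 arrays were spread more widely, and the groups did not overlap. The mean was 782 ± 41.9 (SD, n = 2) with saline and 359.6 ± 143 (SD, n = 3) with IL-13. On the log2 scale the difference was -1.19 (SE 0.32, 95% interval -1.97 to -0.41), a level 2.29-fold lower, with a limma adjusted p of 0.386, which did not pass. All IL-13 arrays lay below both saline arrays for 11.0% of all tested probe sets, and 1.68% of them had a larger absolute difference than Mpeg1. Leaving out 1 array at a time gave differences from -1.50 to -0.95, all of the same sign, and the adjusted p lay between 0.269 and 0.706 over all settings tried. The second Mpeg1 probe set, 162075_r_at, read between 0.744 and 9.53, below the floor on every array, and gave no fold.

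Cd68, a heavily glycosylated membrane protein of lysosomes and endosomes, did not separate the treatments. Its probe set 103016_s_at read 722.2 on saline 6 and 875.1 on saline 48, and 571.4, 812.8 and 667.6 for IL-13 6, IL-13 18 and IL-13 48. IL-13 18 lay between the saline arrays and the other 2 IL-13 arrays lay below both. The log2 difference was -0.23 (SE 0.21, 95% interval -0.75 to 0.28), with a limma adjusted p of 0.779, and -0.37 to -0.09 when 1 array was left out. The ending _s_at marks probes that may be shared with related transcripts. The other Cd68 probe set, 162173_i_at, was below the floor on all 5 arrays, at 3.36 to 24.9.

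Lyz2 encodes lysozyme M, which cleaves bacterial cell walls and is made by macrophages, neutrophils and alveolar type II cells. Its probe set 100611_at read 10708 on saline 6 and 15059 on saline 48, and 14634, 11236 and 14169 for IL-13 6, IL-13 18 and IL-13 48. All 3 IL-13 arrays lay between the 2 saline arrays. The log2 difference of 0.06 (SE 0.23, 95% interval -0.48 to 0.61, limma adjusted p 0.947) was smaller than that between the saline arrays, 0.49. Its sign turned without saline 6 (-0.18) and without IL-13 6 (-0.01). The dim probe set 162309_at read 20 and 60.3 on the saline arrays against 98.5, 134.2 and 88.8 on the IL-13 arrays. Its groups did not overlap, but all 5 values lay under the filter value and it was not tested. The probe set 101753_s_at, shared with the neighbouring lysozyme gene, read 13839 and 16200 on the saline arrays against 21177, 16437 and 14841 on the IL-13 arrays. The 2 lysozyme transcripts cannot be told apart on it.

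Csf1r, the receptor for macrophage colony-stimulating factor and IL-34 on which the survival of many macrophages depends, gave 2 probe sets that pointed in opposite directions. On the brighter one, 104354_at, it read 1590 on saline 6 and 1259 on saline 48, and 1103, 1162 and 1391 for IL-13 6, IL-13 18 and IL-13 48. IL-13 48 lay between the saline arrays and the other 2 IL-13 arrays below both. The log2 difference was -0.22 (SE 0.20, 95% interval -0.70 to 0.26, limma adjusted p 0.772), and -0.39 to -0.05 when 1 array was left out. On 161832_r_at the values were 117.7 and 175.8 on the saline arrays against 280.4, 303.1 and 169.1 on the IL-13 arrays. Here IL-13 6 and IL-13 18 lay above both saline arrays and IL-13 48 between them. The log2 difference was 0.76 (SE 0.32, 95% interval -0.0029 to 1.52, limma adjusted p 0.542), and 0.47 to 1.05 when 1 array was left out. This dimmer probe set exceeded 210 on 2 arrays, both of them IL-13, so it was tested only through the group in which it is high, and its ending _r_at marks probes chosen under relaxed rules.

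Mrc1, the mannose receptor, binds mannose-rich glycans for uptake and is widely used as a marker of alternative activation. Its only probe set, 103226_at, read 359.1 on saline 6 and 406 on saline 48, and 531.6, 514.7 and 320.6 for IL-13 6, IL-13 18 and IL-13 48. IL-13 6 and IL-13 18 lay above both saline arrays and IL-13 48 lay below both. The log2 difference was 0.22 (SE 0.26, 95% interval -0.41 to 0.85), with a limma adjusted p of 0.834. Leaving out 1 array gave 0.09 to 0.45.

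The scavenger receptor genes were dim. Marco, a class A scavenger receptor with a collagen-like stalk that alveolar macrophages of mice carry, read 424.8 on saline 6 and 17.2 on saline 48, with 41.5, 27.6 and 96.3 for IL-13 6, IL-13 18 and IL-13 48. It was above the filter value on saline 6 only, and below the floor on 3 arrays. Saline 6 was at least 7.68-fold above saline 48 and at least 7.68-fold above IL-13 6. Both bounds are the same because both arrays stand at the floor, so the 2 distances cannot be ranked. Msr1, the other class A scavenger receptor, takes up modified low-density lipoprotein. Its probe set 94792_at read 94 and 95.9 on the saline arrays against 77.2, 70.6 and 100.9 on the IL-13 arrays, and 94140_at read 51.4 and 64.6 on the saline arrays against 101, 39.5 and 94.2 on the IL-13 arrays. Both lay under the filter value on every array and the groups overlapped on both.

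Adgre1 encodes F4/80, an adhesion receptor by which mouse macrophages are commonly stained. Its probe set 103507_at read 43.1 on saline 6 and 187.2 on saline 48, with 176.6, 239.7 and 139.6 for IL-13 6, IL-13 18 and IL-13 48. Saline 6 was the one array below the floor, and saline 48 lay within the range of the IL-13 arrays. IL-13 6 was at least 3.19-fold above saline 6, and saline 48 was at least 3.39-fold above it. On saline 6 Adgre1 was thus the lowest of its 5 values while Marco was the highest. The second Adgre1 probe set, 161377_at, read 8.59 and 16 on the saline arrays against 40, 64.4 and 38.2 on the IL-13 arrays, with 4 arrays below the floor.

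**Figure D2:**
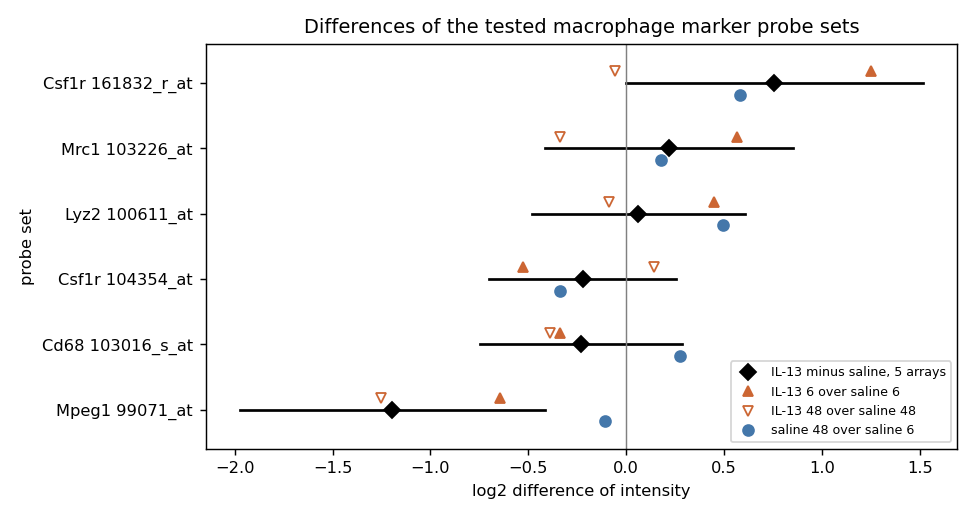
Log2 differences (horizontal axis) of the 6 tested probe sets (vertical axis): IL-13 minus saline over 5 arrays as diamonds with 95% intervals of the limma fit, the pairs of equal number as triangles (6 filled, 48 open) and saline 48 over saline 6 as blue circles. Only the interval of Mpeg1 excludes 0 before adjustment, and the triangles of Lyz2, Mrc1 and both Csf1r probe sets lie on opposite sides of 0.

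Arrays of equal number were then set side by side. Each such comparison holds 1 array against 1 and has no test. A probe set was counted when the arrays were at least 2-fold apart and the brighter lay above the pooled median of 343. At number 6, 1 of the 14 probe sets was counted as lower with IL-13, that of Marco, and 0 as higher, where 2.14% and 1.84% of all probe sets were. At number 48, 1 was counted as lower, that of Mpeg1, and 0 as higher, where 1.09% and 0.596% of all probe sets were. Between saline 48 and saline 6 the count was again 1 lower, Marco, and 0 higher, with a background of 1.64% and 1.63%. For Mpeg1 the IL-13 array lay 1.56-fold below saline at number 6 and 2.38-fold below it at number 48, and IL-13 18 lay 3.22-fold below the mean of both saline arrays. Its saline arrays differed by 1.08-fold. Cd68 with IL-13 lay 1.26-fold (number 6) and 1.31-fold (number 48) below saline. Mrc1 was 1.48-fold higher at 6 and 1.27-fold lower at 48, while Lyz2 (100611_at) was 1.37-fold higher at 6 and 1.06-fold lower at 48. Over the 5 tested genes the median log2 difference was -0.34 at both numbers, beside 0.05 and 0.01 over all tested genes.

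The genes whose levels over the 5 arrays lay closest to the Mpeg1 pattern were sought among 5978 other tested genes, by the root mean square distance of log2 values centred on each gene's mean. The closest were the cytochrome P450 gene Cyp2e1 (distance 0.16), the stress-induced inhibitor of growth signalling Ddit4 (0.19), the lymphocyte phosphatase gene Ptpn22 (0.20), the protein kinase C gene Prkcb (0.25) and Rcl1 (0.25). The median distance over all genes compared was 0.73, and 9 genes lay within 0.3. Ptpn22 read 1084 and 909.6 on the saline arrays against 532.1, 304.6 and 490 on the IL-13 arrays, and Cyp2e1 read 3538 and 4182 on the saline arrays against 2844, 1434 and 1882 on the IL-13 arrays.

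Mpeg1 and the summed intensity of genes shared by leukocytes were both lower on each IL-13 array than on either saline array. Within a treatment they did not run in parallel. Of 14 genes shared by most leukocytes, all 14 had a lower mean with IL-13, 10 without overlap of arrays (11.0% of all tested probe sets were lower in this way), and 0 passed the adjusted test (limma, 8 with an unadjusted p under 0.05). Their median log2 difference was -0.87. This list, like the marker lists below, was chosen with earlier results of these data known. Its counts beside the 11.0% are therefore descriptions and no test of the list. The tetraspanin gene Cd53 differed by -1.42 (SE 0.39), the integrin chain gene Itgb2 by -1.11 (SE 0.25), the GTPase gene Rac2 by -1.11 (SE 0.33) and the lysosomal membrane gene Laptm5 by -1.09 (SE 0.24). T cell markers differed more widely, with 12 of 12 tested genes lower, all without overlap, 0 called by limma (11 with an unadjusted p under 0.05) and a median of -1.42. One of the 12, Cd247, passed the filter only through the saline arrays, where it is high. With IL-13 higher, 14.8% of all tested probe sets did not overlap. The summed intensity of the T cell markers was 15803 and 18861 with saline and 5018 to 10122 with IL-13. The summed intensity of the leukocyte genes was 27797 on saline 6, 17457 on saline 48 and 11369 to 13451 with IL-13. Mpeg1 read 812.1 and 752.9 on the same saline arrays. On IL-13 18 Mpeg1 was lowest, at 243.1, while the T cell sum there was the highest of the IL-13 arrays, at 10122. The sum over all 8 macrophage markers with a probe set overlapped between the groups, with 14753 and 18652 on the saline arrays against 17655, 14307 and 17200 on the IL-13 arrays, and Lyz2 makes most of it. The sum over the 7 markers other than Lyz2 was 4045 and 3594 with saline and between 3021 and 3071 with IL-13. Csf1r, Cd68 and Mpeg1 make a large part of this sum. It holds Mpeg1 itself, at 812.1 and 752.9 with saline and 243.1 to 519.8 with IL-13, and Marco at 424.8 on saline 6. The lower sum with IL-13 is therefore not independent of Mpeg1. How much of it remains without Mpeg1 is not given here. Other marker sums moved on these arrays as well. Thymus markers summed to 4585 and 4634 on the saline arrays against 2343, 3766 and 2315 on the IL-13 arrays. Dntt and Cd1d1 make a large part of these sums. Of the 4 tested thymus markers 3 had a lower mean with IL-13 and 1, Rag1, a higher one. Rag1 read 531.9 and 756.3 on the saline arrays against 742.5, 898.9 and 679.7 on the IL-13 arrays. Saline 6 stood apart in B cell markers (15084, against 3615 to 6249 on the other arrays). It also did in a list of lymph node and platelet markers (4615, against 700.1 to 1578), through the lymph node genes Glycam1, Cxcl13 and Madcam1. The platelet genes of that list did not stand apart. Pf4 read 78.4 on saline 6 and 25.8 to 121.5 on the other arrays, and Gp9 read 81.8 against 60.6 to 125.1. Heart muscle markers were highest on saline 6 (33195) and next on IL-13 18 (24087), with 11504, 18454 and 12335 for saline 48, IL-13 6 and IL-13 48. Actc1, at 9837 to 16252 on the 5 arrays, makes a large part of these sums. The heart muscle gene Myl7 read 7547 on saline 6 and 3323 on IL-13 18. It read 129.9, 224.8 and 192.3 for saline 48, IL-13 6 and IL-13 48. The part of these other cells and tissues in the Mpeg1 result was not tested.

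**Figure D3:**
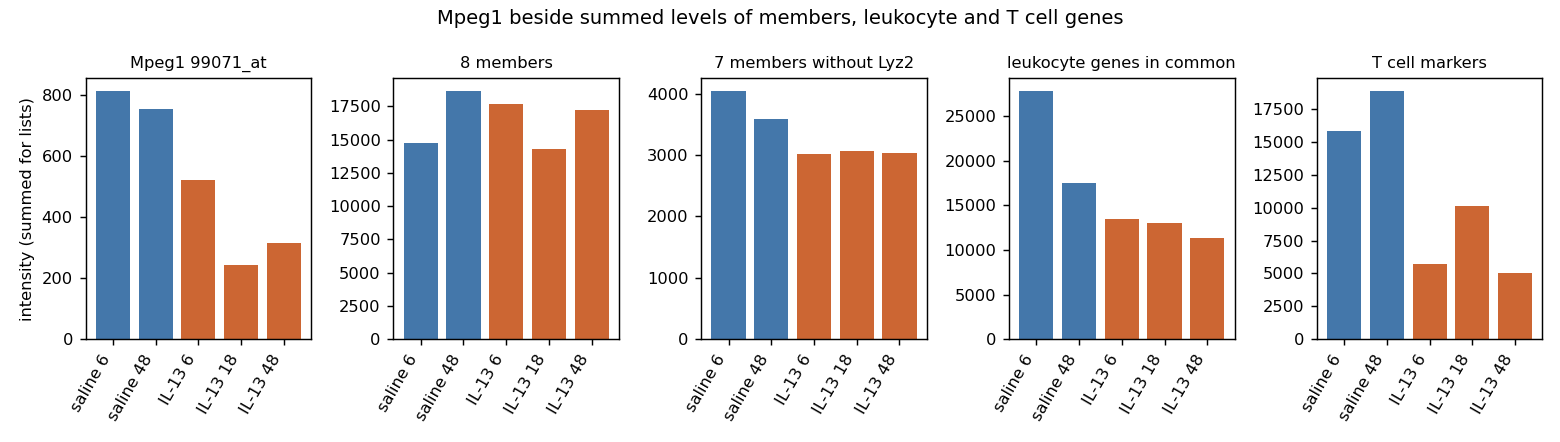
Intensity of Mpeg1 (99071_at) and summed intensities of 8 macrophage markers, of the 7 without Lyz2, of 14 genes shared by leukocytes and of 12 T cell markers (vertical axes from 0, 1 bar per array, saline blue, IL-13 orange). The sum over 8 markers overlaps between the groups, and the other 4 quantities are lower on each IL-13 array than on either saline array, with the T cell markers of IL-13 18 (10122) above those of the other IL-13 arrays. The macrophage marker sums include Mpeg1 itself.

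Further genes of macrophages were taken from lists of related function, chosen with earlier results of these data known. None of their members passed the adjusted test, so the values below are descriptions. Of 15 tested genes of alveolar macrophages and scavenging, 8 had a higher and 7 a lower mean (median 0.07, 4 with an unadjusted p under 0.05). Without overlap of arrays, 4 were higher and 2 lower, where 14.8% and 11.0% of all tested probe sets were. Chil3, a chitinase-like protein of alternatively activated mouse macrophages, stood far from the rest at 4.39 (SE 0.69, limma adjusted p 0.187). The next largest differences were downward, the lipid droplet gene Cidec by -1.19 (SE 0.50, arrays overlapping), lipoprotein lipase, Lpl, by -0.90 (SE 0.24) and the cholesterol exporter gene Abcg1 by -0.66 (SE 0.19). Lgals3 (0.44, SE 0.18), Fabp5 (0.41, SE 0.19) and Ctsk (0.37, SE 0.17) were higher without overlap. These genes were added after their values were seen. Lpl read 13733 and 8806 on the saline arrays against 5887, 5277 and 6563 on the IL-13 arrays, without overlap. Lpl and Cidec are also expressed by fat cells. Siglec1, the sialoadhesin of tissue macrophages, read 22.5 to 77.2 and was not tested.

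Of 13 tested genes of monocytes and interstitial macrophages, 6 had a higher and 7 a lower mean (median -0.09). There were 4 with an unadjusted p under 0.05 and 5 lower without overlap, where 9.26% and 11.0% of all tested probe sets were. The integrin chain gene Itgal, carried by lymphocytes as well, differed by -1.07 (SE 0.41), but exceeded 210 on the 2 saline arrays and no IL-13 array (281 and 230 against 143.4, 180.4 and 68.8), so it was tested only through the group in which it is high. The lipid transport protein gene Apoe differed by -0.69 (SE 0.18), with 12931 and 11728 on the saline arrays against 8078, 6771 and 8099 on the IL-13 arrays. The matrix proteoglycan gene Vcan differed by 0.53 (SE 0.30) and the complement gene C1qa by -0.47 (SE 0.28). The other chains of the same complement component were lower without overlap, C1qb from 924 and 969.7 to 650.1, 710.5 and 754.5, and C1qc from 2229 and 2007 to 1669, 1622 and 1481. They are added here after their values were seen. The endotoxin coreceptor Cd14 read 2110 and 2241 on the saline arrays against 1981, 2711 and 2238 on the IL-13 arrays, and was also chosen after its values were seen.

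Of 16 tested growth factor, transcription factor and adapter genes of macrophages, 14 had a lower and 2 a higher mean, beside 45.7% of all tested genes with a lower mean. Their median was small, -0.20, with 1 unadjusted p under 0.05. Without overlap of arrays 4 were lower and 0 higher, where 11.0% and 14.8% of all tested probe sets were. The signalling adapter gene Tyrobp differed by -0.56 (SE 0.19), the transcription factor gene Irf8 by -0.54 (SE 0.37), the lysosomal protease gene Ctsb by -0.39 (SE 0.19) and Spi1, which encodes the macrophage transcription factor PU.1, by -0.34 (SE 0.28, 549.9 and 312 on the saline arrays against 353, 361.3 and 271.9 on the IL-13 arrays). The ligand gene of Csf1r, Csf1, read 885.8 and 804.4 on the saline arrays against 812.8, 862.9 and 779.1 on the IL-13 arrays and overlapped between the groups. It was chosen as the ligand of a marker after its values were seen.

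Of 14 tested genes of alternative activation, 9 had a higher and 5 a lower mean (median 0.39), beside 45.7% of all tested genes with a lower mean. There were 2 with an unadjusted p under 0.05, where 9.26% of all tested probe sets were. Without overlap of arrays 3 were higher and 2 lower, where 14.8% and 11.0% of all tested probe sets were. The list had a median of 0.43 at number 6 and -0.38 at number 48. Beside Chil3, the lipoxygenase gene Alox15 differed by 1.22 (SE 0.52), the signalling suppressor gene Socs1 by -0.68 (SE 0.20) and the chemokine gene Ccl17 by 0.84 (SE 0.62). Ccl17 read 44.9 and 161.5 on the saline arrays against 270, 212.3 and 84.8 on the IL-13 arrays. It exceeded 210 on 2 IL-13 arrays and no saline array, so it was tested only through the group in which it is high, and at number 48 it was lower with IL-13 (log2 difference -0.93). Alox15 read 631.6 and 440.9 on the saline arrays against 2530, 1041 and 712.3 on the IL-13 arrays, with all IL-13 arrays above both saline arrays. Mrc1, set beside these genes, was higher on IL-13 6 and IL-13 18 and lower on IL-13 48, as given above. The list's median at number 48 was thus below 0 although Chil3 and Alox15 were higher there.

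**Figure D4:**
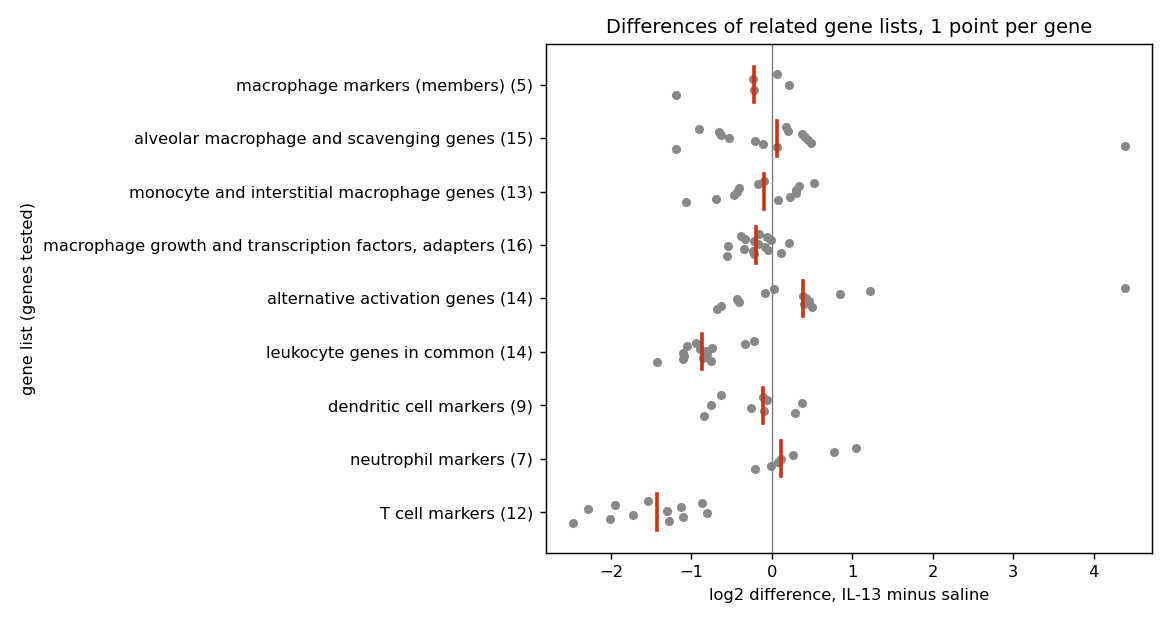
Log2 difference of IL-13 minus saline (horizontal axis) for each tested gene (points) of the macrophage markers and of 8 related lists, with the median of each list as a red bar. The medians of the macrophage markers (-0.22) and of 4 lists of macrophage and monocyte function (-0.20 to 0.39) lie nearer to 0 than those of leukocyte genes (-0.87) and T cell markers (-1.42). In the list of growth and transcription factors and adapters, 14 of 16 points lie left of 0.

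Markers of other myeloid cells gave the following values beside those of macrophages. Of 7 tested neutrophil markers 5 had a higher and 2 a lower mean (median 0.11), and 0 were called. Without overlap of arrays 2 were higher and 0 lower, where 14.8% and 11.0% of all tested probe sets were. These were Csf3r (1.04, SE 0.37) and Il1r2 (0.77, SE 0.17), named after their values were seen. The neutrophil markers had summed intensities of 17264 to 19515 with saline and 17580 to 24799 with IL-13. Ltf makes most of these sums, with 16735 and 14594 on the saline arrays against 20913, 14439 and 14713 on the IL-13 arrays. S100a9, Ngp, Cxcr2 and Mpo were too dim to be tested. Mmp8 and Mmp9 were below the floor on all arrays. Dendritic cell and antigen presentation markers had 2 higher and 7 lower of 9 (median -0.10), with sums of 30719 on saline 6, 18222 on saline 48 and 15697 to 16130 with IL-13. Of 4 eosinophil markers on the array, Prg2, Epx and Il5ra were below the floor on all 5 arrays, and none of the 4 was tested.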

How the data were processed

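The values are intensity on a linear scale as deposited by the authors in one table of 12488 probe sets and 5 arrays. How they were summarised and background-corrected is not given in the sources used here. They had been scaled: the 2% trimmed mean lies between 800.39 and 800.47 on every array. Control probe sets (66) were left out. Symbols came from the platform annotation, which lists 1 for 10833 probe sets (none for 1193, several for 396), and were updated through the RefSeq gene table for 10817. Arrays were scaled to one trimmed mean, raised to 55.3 where lower, and put on the log2 scale. The fit (limma 3.58.1, R 4.3.3, functions lmFit and eBayes) had treatment as the only term, 3 residual and 3.46 prior degrees of freedom, two-sided, Benjamini-Hochberg over all 7811 probe sets, threshold 0.05. It was also run on simulated data, with larger planted changes than those of the markers and neither the floor of 55.3 nor the filter. That run cannot show the power for differences of the size seen in the markers. The number of arrays limits the precision.

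Every member was named with every probe set. Of each related list up to 4 tested members with the largest absolute difference were named, and the 5 nearest patterns to the member with the largest difference. Where a gene has several probe sets, the brightest by mean log2 intensity stands for it in lists. The members and lists were chosen with earlier results of these data known. Alternatives were quantile normalization, values as deposited, a floor at percentile 10 or 40, no filter or one at percentile 60 (534), eBayes with trend and robust, a block for title number, the mean over probe sets of a gene, and leaving out each array. Figures were drawn with matplotlib 3.10.9.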

Additional observations from a re-analysis of the deposited data

Results flagged for a closer look

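For 4 of the 6 tested probe sets the pair of arrays at number 6 and the pair at number 48 differed in opposite directions. Each pair holds 1 array per treatment, so this contrast of pairs was not tested. The gap between the log2 difference at 6 and that at 48 was 1.31 for the dim Csf1r probe set 161832_r_at (1.25 at 6, -0.06 at 48), 0.91 for Mrc1 (0.57 and -0.34), -0.67 for the brighter Csf1r probe set 104354_at (-0.53 and 0.14) and 0.54 for Lyz2 100611_at (0.45 and -0.09). The 2 saline arrays themselves differed, saline 48 over saline 6, by 0.58, 0.18, -0.34 and 0.49 in the same order.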

How the results depend on the processing

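No macrophage marker was called under any of the 13 alternative fits, and the differences of Mpeg1 (-1.50 to -0.95), Cd68, Mrc1 and both Csf1r probe sets kept their sign in every fit in which they were tested. Leaving out 1 array turned the sign of Lyz2 100611_at, with a range of -0.18 to 0.31. With title number as a replicate block over the 4 arrays of 6 and 48, Mpeg1 differed by -0.95 (SE 0.25, limma adjusted p 0.491) and the median of the member genes was -0.19. Over all alternatives that median lay between -0.23 and 0.06, the last with the mean over probe sets. Without the filter 5 of 8 member genes had a lower mean, in place of 3 of 5, since 3 more genes entered. Among all probe sets the 4 calls became 1 with the filter at the 60th percentile and 0 with either other floor, no filter, trend and robust settings, or the replicate block. Leaving out 1 array gave 0 to 13 calls: 13 without saline 48, 1 without saline 6 and 0 without any one IL-13 array. Where 1 saline array remains, it is assumed to vary like the IL-13 arrays. Values under the floor limit what can be said of Marco, Msr1 and Adgre1.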
